A study of Mus musculus with 2 samples.

Results

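Glycogen, the branched glucose store of muscle, was examined through 9 genes of its synthesis and breakdown, chosen by name and found by gene identifier in both deposited quantifications. They are 9 of 55536 annotated genes. The measured material was total RNA from the hearts of male mice, 8 to 10 months old, bred by crossing 5xFAD (a transgenic model of brain amyloid disease) to CAST, a wild-derived inbred strain. The labels give the cross but not the transgene status of the animals, and all libraries come from this 1 group, with no other genotype, treatment or time to compare with. The 2 libraries carry biological replicate numbers 1 and 2 and separate tissue sample identifiers under a shared donor identifier. The spread between them may therefore be technical as well as biological. They held 39819960 and 37060119 expected counts. The cardiomyocyte markers Myh6, Actc1, Tnnt2, Tnni3, Ryr2 and Atp2a2 each lay at or above 293 TPM (a relative transcript level) in both libraries, so the heart label held up against its markers. TPM are scaled for transcript length and library total, so they can be compared between genes. Where no library is named, values are the mean ± SD over the libraries (n = 2). Each library was quantified by the authors in a pair of ways, a first one with gene and transcript tables and a second with a transcript table, and values are of the first unless the second is named.

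Glycogen is built from UDP-glucose, which Ugp2 makes. Glycogenin (Gyg) primes the particle by adding glucose to itself, glycogen synthase (Gys1 in muscle and most tissues, Gys2 in liver) lengthens the chains and the branching enzyme Gbe1 adds branch points. Glycogen phosphorylase, with forms named for muscle (Pygm), brain (Pygb) and liver (Pygl), removes glucose units from the chain ends as glucose-1-phosphate. Phosphorylase kinase, whose muscle alpha subunit is Phka1, switches phosphorylase on by phosphorylating a serine near its start. Phosphorylation has the opposite effect on glycogen synthase. Both steps are targets of adrenergic and calcium signalling in the beating heart.

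The regulated sites are printed as examples of how the paralogs compare in sequence. How well reads tell the paralogs apart was not tested. The coding sequence around the phosphorylated serine of the phosphorylases, codon 15 counted from the start codon in each, is given from the GENCODE M21 transcripts (mm10), 5′ to 3′, with the serine codon in capitals. The stretches lie at chr19:6384491-6384550, plus strand, at chr2:150786880-150786939, plus strand, and at chr12:70227512-70227571, minus strand, all in coding exons.
Pygm: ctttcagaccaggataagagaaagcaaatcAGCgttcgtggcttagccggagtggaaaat
Pygb: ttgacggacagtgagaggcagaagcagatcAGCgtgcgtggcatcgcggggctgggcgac
Pygl: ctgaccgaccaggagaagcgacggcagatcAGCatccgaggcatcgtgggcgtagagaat
The serine codon was the same in all 3. Over the whole coding sequence, Pygm and Pygb matched at 77.4% of aligned bases, Pygm and Pygl at 75.3% and Pygb and Pygl at 75.6%. Their longest exact shared stretches were 62, 29 and 29 bases.

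The start of the coding sequence of both synthases is shown in the same way, with the codons of the regulatory serines known as site 2 and site 2a (codons 8 and 11) in capitals. These stretches lie at chr7:45435053-45435112, plus strand, and at chr6:142472742-142472801, minus strand.
Gys1: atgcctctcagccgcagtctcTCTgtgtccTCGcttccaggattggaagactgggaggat
Gys2: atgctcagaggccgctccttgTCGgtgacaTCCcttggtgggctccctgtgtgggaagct
Gys1 and Gys2 matched at 69.4% of aligned coding bases, with a longest exact shared stretch of 29 bases. At the gene level the expected counts of all 9 genes were whole numbers (within 0.005) in both libraries, as they were for 82.1% of genes with a mean of at least 1 TPM. None of their counts thus carried the fraction that is left when a read is divided between genes.

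Phosphorylase transcripts were the most abundant of the 9, and the muscle and brain forms were both high. In all, 7 of the 9 genes reached 1 TPM in both libraries, against 21.0% of all annotated genes, coding or not. All 9 are protein coding, and of the 16436 protein-coding genes with any signal 10767 did so. The same 7 stood above 7.63 TPM, the median of the 10767 protein-coding genes detected in both. By mean TPM the order was Pygm, Pygb, Ugp2, Gyg, Gys1, Gbe1, Phka1, Pygl and Gys2. No neighbours in that order overlapped between libraries in either quantification, so the order was the same in each library. The plot of levels shows the gap between Phka1 and the pair of low genes.

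**Figure D1:**
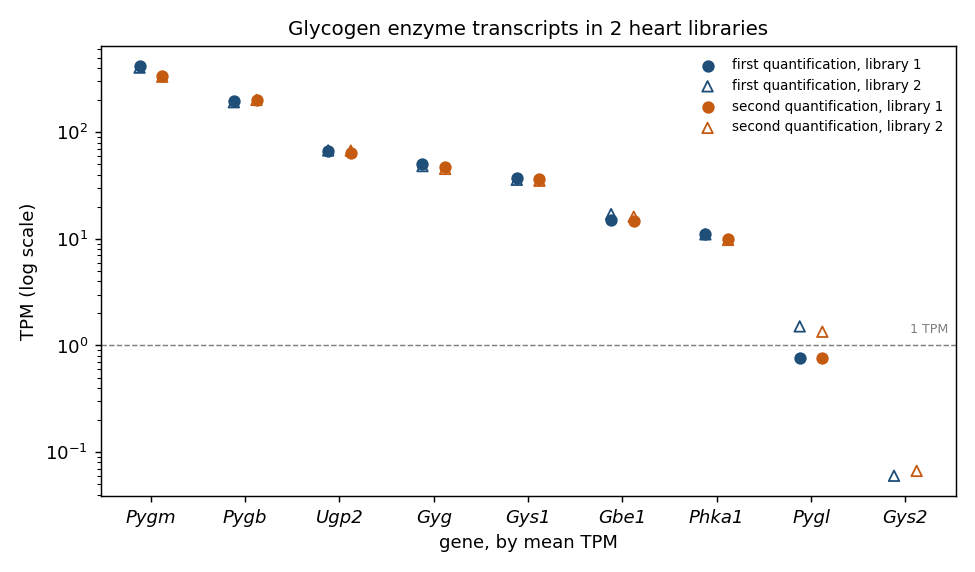
TPM (log axis) of the 9 glycogen enzyme genes, with 1 point per library and quantification (blue first, orange second, filled circle library 1, open triangle library 2). Pygm and Pygb lie at 191 TPM or more, Pygl lies on both sides of 1 TPM, and the library 1 values of Gys2 are 0 and so are not drawn.

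Among the breakdown enzymes, Pygm (chromosome 19, 6384399 to 6398459, plus strand) stood at 414 TPM in library 1 and 403 in library 2, or 409 ± 7.54. It ranked 120 among the 16436 protein-coding genes with any signal. Pygb (chromosome 2, 150786735 to 150831758, plus strand) stood at 195 and 191 TPM, at rank 261. Pygm thus exceeded Pygb 2.12-fold ± 0.0124, and 1.66-fold ± 0.00357 in the second quantification. Pygl (chromosome 12, 70190811 to 70231488, minus strand) was listed at only 0.760 and 1.51 TPM, from 62 and 123 expected counts, at rank 10763. Of the summed phosphorylase TPM, Pygm held 67.8% ± 0.189, Pygb 32.0% ± 0.0983 and Pygl 0.189% ± 0.0909. The brain form therefore made up close to 32% of phosphorylase TPM by the first quantification, 37.6% by the second and 34.8% over coding transcripts. The share of Pygm depended on the table. It was 62.2% ± 0.0989 in the second quantification and 65.0% ± 0.0571 over coding transcripts alone, and in each of these it was the leading form.

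In the synthesis group, Ugp2 (chromosome 11, 21321138 to 21371201, minus strand) was highest, at 66.2 and 67.4 TPM. Glycogenin, Gyg (chromosome 3, 20122084 to 20155317, minus strand), stood at 50.5 and 48.1 TPM. Gys1 (chromosome 7, 45434844 to 45456619, plus strand) stood at 37.6 and 35.8 TPM, so that transcripts of the primer exceeded those of the synthase 1.34-fold ± 0.00129. The branching enzyme Gbe1 (chromosome 16, 70313949 to 70569716, plus strand) was lowest of the expressed synthesis genes, at 15.2 and 17.1 TPM. Summed over the forms of each enzyme, phosphorylase transcripts exceeded synthase transcripts 16.4-fold ± 0.278, and 15.0-fold ± 0.267 in the second quantification. These are ratios of transcript levels and say nothing of enzyme activity.

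The liver synthase was barely detected. Gys2 (chromosome 6, 142422613 to 142473109, minus strand) had 0 expected counts in library 1 and 5 in library 2 (exact 95% interval 1.62 to 11.7). With a floor set at 3 counts per library, or 0.0354 TPM in library 1, Gys1 was at least 1061-fold higher there. The exact 95% interval for 0 counts reaches 3.69 counts, which lowers this bound to 863-fold. In library 2 the ratio was 571, with an exact interval of 245 to 1759. Gys1 held 99.9% ± 0.118 of synthase TPM. The liver markers Alb, Apoa1, Apoa2, Ttr, Fgb and Cps1 summed to 1.82 and 0.980 TPM, with Apoa1 and Fgb at 0 counts in both libraries. The 2 genes that reached 1 TPM in at most 1 library, Pygl and Gys2, are the ones named for liver.

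**Figure D2:**
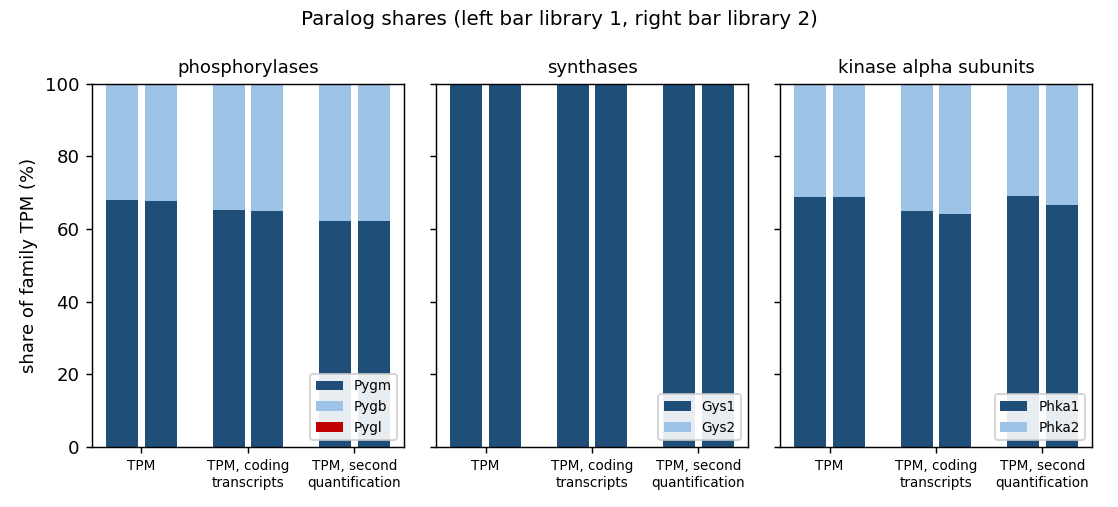
Stacked bars of the share (percent) of each family's TPM held by each gene for the phosphorylases, the synthases and the kinase alpha subunits, with library 1 left and library 2 right in each pair, for TPM, TPM of coding transcripts and TPM of the second quantification. Pygm holds 62.1% to 68.0% of its family, Gys1 at least 99.8% and Phka1 64.0% to 69.0%. Pygl and Gys2 are too low to be seen.

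Phosphorylase kinase is built from alpha, beta and gamma subunits with calmodulin as the fourth, and the gamma subunit is catalytic. Its muscle alpha subunit Phka1 (chromosome X, 102513975 to 102644246, minus strand) stood at 11.2 and 11.02 TPM. The liver alpha subunit Phka2 stood at 5.02 ± 0.0566. Phka1 held 68.9% ± 0.0175 of alpha subunit TPM. The liver form thus made up a larger part of its family here than the liver forms of phosphorylase and synthase did of theirs. The shared beta subunit Phkb stood at 25.1 ± 1.41, against 16.1 ± 0.191 for both alpha and 12.7 ± 1.96 for both gamma subunits. Of the gamma subunits, the muscle form Phkg1 stood at 8.13 and 5.75 TPM and the liver and testis form Phkg2 at 5.93 and 5.54. The phosphorylases exceeded the alpha subunits 37.4-fold ± 0.143.

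Transcript-level values show which messages these levels rest on. In both quantifications the same transcript led the gene on average for 8 of the 9 genes, Gbe1 being the exception. For Gys2 the lead rests on library 2 alone, with 5 expected counts. For Gyg it changed in library 2 of the second quantification. The leading transcript was protein coding in all 9. Gys1-201 held 97.3% ± 0.391 of Gys1 TPM, and Pygb-201 held 97.7% ± 0.975 of Pygb TPM, or 86.3% ± 0.482 by the second quantification. Pygm-201 held 84.8% ± 0.883 of Pygm TPM, and Pygl-201 held 90.1% ± 4.62 of the low Pygl TPM. For Pygm and Pygb most of the remainder lay in short entries that are not annotated as coding. Pygm-203, a retained-intron entry of 532 bases (6397495 to 6398291), held 13.5% ± 0.224 of Pygm TPM, but 0.196% ± 0.277 by the second quantification. For Pygb-203, a retained-intron entry of 531 bases (150828388 to 150830634), the larger value was that of the second quantification, at 12.7% ± 0.641 against 1.32% ± 0.732. Pygm as a whole went from 409 to 333 TPM between the quantifications, and Pygm-203 from 55.1 to 0.649. Over coding transcripts alone, Pygm stood at 352 ± 7.81 TPM and Pygb at 188 ± 4.25.

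Ugp2 was expressed as a pair of coding messages with different first exons, which start 724 bases apart. Ugp2-201 held 57.0% ± 1.49 of Ugp2 TPM and Ugp2-202 held 42.7% ± 1.52, at 38.1 ± 0.502 and 28.5 ± 1.39 TPM. The second quantification gave 70.2% ± 0.730 and 28.9% ± 0.789, with the same order in both libraries. The coding starts differ. Ugp2-202 begins 33 coding bases earlier, shown in capitals below, and then continues with the start codon of Ugp2-201, also in capitals in its own line. The stretches lie at chr11:21354363-21370205, minus strand, across an intron, and at chr11:21354363-21354392, minus strand.
Ugp2-202: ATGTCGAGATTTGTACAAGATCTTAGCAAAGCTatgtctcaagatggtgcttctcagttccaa
Ugp2-201: ATGtctcaagatggtgcttctcagttccaa
RefSeq (GRCm38.p6) also lists 2 start sites for Ugp2, 66 and 152 bases upstream of the GENCODE starts of Ugp2-201 and Ugp2-202. The 250 bases before each are printed because both messages were detected, with the Ugp2-201 side (chr11:21371268-21371517, minus strand) first and the Ugp2-202 side (chr11:21370630-21370879, minus strand) below it.
Upstream of Ugp2-201: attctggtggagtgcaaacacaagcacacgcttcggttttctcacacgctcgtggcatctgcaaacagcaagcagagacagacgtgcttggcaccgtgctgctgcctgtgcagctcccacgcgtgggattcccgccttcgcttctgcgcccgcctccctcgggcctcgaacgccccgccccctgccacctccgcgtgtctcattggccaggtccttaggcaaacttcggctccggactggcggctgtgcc
Upstream of Ugp2-202: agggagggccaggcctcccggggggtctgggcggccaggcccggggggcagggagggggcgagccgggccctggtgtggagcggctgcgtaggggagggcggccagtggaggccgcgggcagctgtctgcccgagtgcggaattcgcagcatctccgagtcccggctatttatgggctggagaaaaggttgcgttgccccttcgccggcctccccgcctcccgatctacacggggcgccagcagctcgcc
G and C made up 64.0% of the first and 73.6% of the second, more than in 80.8% and 94.7% of the 32851 RefSeq windows of that length. The hexamer GGGCGG, searched on both strands, occurred 1 time and 2 times. It was found in 32.7% of all windows, so its presence is a description only.

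For Phka1 the leading coding message lacked 1 exon. Phka1-201 held 70.5% ± 0.788 of Phka1 TPM and 74.7% ± 2.42 in the second quantification. It skips a coding exon of 177 bases, a multiple of 3, that all 5 other coding transcripts of the gene include (chrX:102557096-102557272, minus strand). The exon is printed because its use separates these messages.
Phka1 exon: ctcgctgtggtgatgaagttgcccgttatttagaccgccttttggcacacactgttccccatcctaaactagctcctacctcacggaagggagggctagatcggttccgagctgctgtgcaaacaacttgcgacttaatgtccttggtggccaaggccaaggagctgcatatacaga
Coding transcripts with this exon held 0.443% ± 0.627 of the coding TPM of Phka1, and 1.23% ± 0.341 in the second quantification. Phka1-207, a retained-intron entry of 2799 bases with 21 exons that starts where the coding transcripts do, also contains the exon and is not annotated as coding. It stood at 3.25 ± 0.177 TPM, or 29.2% ± 1.24 of Phka1. Counting it, transcripts with the exon held 29.5% ± 0.788 of all Phka1 TPM, and 25.3% ± 2.42 by the second quantification. How often full-length messages include the exon therefore depends on whether the reads credited to Phka1-207 belong to that entry, which was not tested. The choice of this exon was made after the values were seen.

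For Gyg and Gbe1 the division among transcripts depended on the quantification. Gyg-203, whose sequence is contained in Gyg-201, held 96.0% ± 3.45 of Gyg TPM in the first one. In the second it held 58.7% ± 13.7, at 32.2 and 22.2 TPM, while Gyg-201 stood at 14.4 and 22.3, so that the pair changed order in library 2. Gyg-201 has 221 more bases at its start, and its coding sequence is 132 bases longer. For Gbe1, the first quantification divided the TPM between Gbe1-201, with 55.2% ± 1.80, and Gbe1-203, with 40.3% ± 3.27. The second gave 98.1% ± 1.04 to Gbe1-203 and 0.283% ± 0.400 to Gbe1-201. The coding sequences of these models have 2106 bases each and differ at 1 base. The transcripts start 138 bases apart and share an exact stretch of 1999 bases. They also differ in structure, with 17 exons over 2846 bases for Gbe1-201 and 16 over 2984 for Gbe1-203. The gene totals moved little, from 49.3 to 46.2 TPM for Gyg and from 16.1 to 15.4 for Gbe1.

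**Figure D3:**
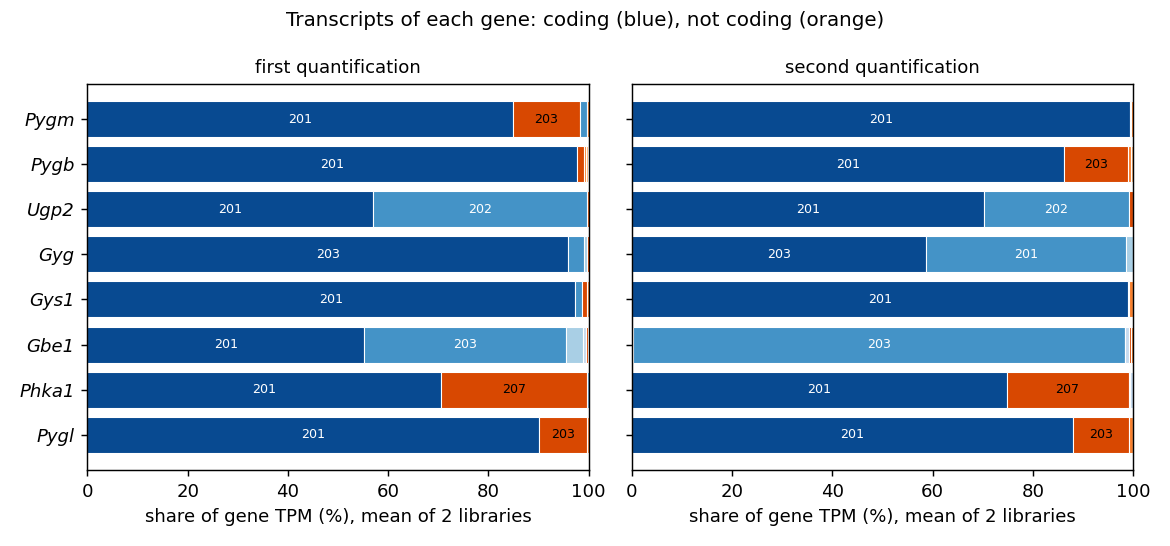
Share (percent, mean of the 2 libraries) of each gene's TPM held by each of its transcripts, in the first (left) and second (right) quantification, with coding transcripts in blue, other transcripts in orange and transcript numbers on parts of at least 9%. Gys2 is left out because it had 0 counts in library 1. The quantifications differ most for Gbe1 and Gyg, and the non-coding part is larger for Pygm in the first and for Pygb in the second.

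Some of the genes share genomic space with others. Gys1 overlaps Ruvbl2 on the opposite strand over 3253 bases, and a Ruvbl2 transcript is complementary to Gys1-201 over 290 bases. Ruvbl2 itself stood at 7.34 and 8.39 TPM. Pygl overlaps the non-coding F730035M05Rik, with 1 count in each library, and Ugp2 overlaps Gm12043, with 0 and 1 counts, both on the opposite strand. The kit is directional per the labels, but how the counting used strand is not given in the sources used here. A search of all annotated transcripts for copies of at least 100 bases and 85% identity found 1 other, the pseudogene Gm47451, which matched Pygl-201 over 387 bases at 94.8% and had 0 counts in both libraries.

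The other genes of glycogen metabolism were described from a list of 30, of which 25 reached 1 TPM in both libraries. Of all annotated genes 21.0% did so, and of the 16436 protein-coding genes with any signal 10767 did. The lysosomal glucosidase Gaa, which breaks down glycogen by another route, stood at 33.5 ± 1.16, while Stbd1, a glycogen-binding protein proposed to carry glycogen to lysosomes, stood at 0.400 ± 0.113. Of the genes supplying sugar phosphates, hexokinase 2 (Hk2) led at 128 ± 1.73 TPM (95.3 in the second quantification), ahead of the phosphoglucomutase Pgm1 at 81.0 ± 0.622 and Hk1 at 31.0 ± 3.75. The related Pgm2l1 and Pgm2 were at 2.41 ± 0.113 and 1.74 ± 0.396. Transcripts of the hexokinase and mutase steps before Ugp2 thus came mostly from Hk2 and Pgm1.

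Protein phosphatase 1 dephosphorylates both synthase and phosphorylase when a targeting subunit brings it to glycogen. Its catalytic genes Ppp1cb, Ppp1ca and Ppp1cc stood at 142 ± 0.375, 85.7 ± 3.59 and 35.3 ± 0.721 TPM, and they serve many other substrates. Over coding transcripts alone the order changed, with Ppp1ca at 63.5 ± 0.643, Ppp1cb at 31.0 ± 0.382 and Ppp1cc at 20.2 ± 0.827. Expected counts of Ppp1cb, Ppp1cc and Ppp1r3f were not whole. Of the 7 targeting subunits, Ppp1r3c led with 28.8 ± 2.91 and the muscle form Ppp1r3a followed with 27.1 ± 0.933. Their ranges overlapped, at 30.9 and 26.8 for Ppp1r3c against 26.4 and 27.8 for Ppp1r3a, so their order is not fixed. Ppp1r3b, named for liver, stood at 7.39 ± 0.820 and Ppp1r3d at 5.18 ± 0.0354. Ppp1r3f, Ppp1r3e and Ppp1r3g stood at 1.35 ± 0.198, 1.09 ± 0.219 and 0.185 ± 0.0212, with Ppp1r3e at 0.200 ± 0.0424 over coding transcripts. The synthase kinases Gsk3a and Gsk3b stood at 21.9 ± 0.891 and 17.1 ± 0.0141. Laforin (Epm2a), a glycogen phosphatase, stood at 13.4 ± 0.290 and its ubiquitin ligase partner malin (Nhlrc1) at 2.18 ± 0.163.

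Genes that release free glucose differed by form. G6pc and G6pc2, the glucose-6-phosphatases of liver and pancreatic islets, had 0 counts in both libraries. The widely expressed G6pc3 stood at 20.3 ± 1.60 TPM and the glucose-6-phosphate transporter Slc37a4 at 8.13 ± 1.27. The plot of pathway levels sets these groups side by side.

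**Figure D4:**
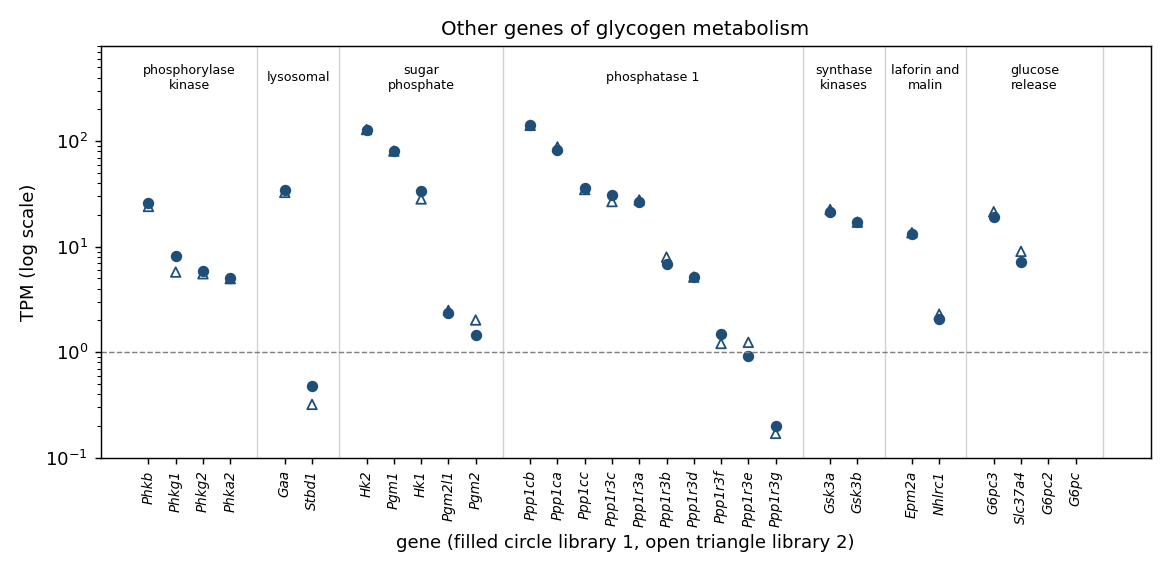
TPM (log axis) of the other genes of glycogen metabolism, grouped by role and ordered by mean within each group, with 1 gene of the list left out, with a filled circle for library 1 and an open triangle for library 2. The dashed line marks 1 TPM. G6pc and G6pc2 are at 0 and not drawn, and Stbd1 and Ppp1r3g lie below the line in both libraries.

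The libraries were close for most of these genes. The comparison has no groups, and replicates have no order, so a difference is only a spread. None of the 8 genes with a mean of at least 1 TPM passed a 2-fold ratio of TPM + 1, against 0.603% of 11940 genes. Their median log2 ratio of library 2 to library 1 was -0.02, beside -0.01 over all 12032 genes with a mean of at least 1 TPM. The ratio of expected counts, scaled by library totals, was set in an exact (Clopper-Pearson) 95% interval that covers counting error only. That interval lay above 1 for 2 of the 8, Gbe1 and Pygl, where 12.8% of all genes did so. It lay below 1 for Pygm and Pygb, where 10.4% did so. With DESeq2 size factors these shares of all genes were 10.3% and 12.6%, and the calls on Gbe1, Pygl, Pygm and Pygb were kept.

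The ratios for Pygm and Pygb were 0.982 (0.967 to 0.998) and 0.981 (0.963 to 0.999). These rest on 33638 and 30764 counts for Pygm and 24224 and 22112 for Pygb, the deepest of the 9. In the second quantification neither interval lay below 1, and Ugp2 joined Gbe1 and Pygl above it. Gbe1 was at 1411 and 1482 counts, a ratio of 1.13 (1.05 to 1.21). Gys1 and Gyg had ratios of 0.969 (0.928 to 1.01) and 0.967 (0.915 to 1.02), Ugp2 of 1.04 (0.995 to 1.08) and Phka1 of 1.01 (0.940 to 1.07). For these 4 the interval included 1.

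Pygl was the 1 gene of the 9 with a large difference. Its 62 and 123 counts gave a ratio of 2.13 (1.56 to 2.94), and its log2 ratio of TPM + 1 was 0.51, a scale that understates the change of low genes. Its ratio was past 2-fold in expected counts, whether scaled by library totals or by TMM or DESeq2 factors (log2 ratios of 1.07 and 1.06). It was not in TPM + 0.1, at 0.90. In TPM + 1 of the second quantification it was 0.41, on the same scale as the 0.51 above. The values there were 0.765 and 1.35 TPM. Markers of several other cell types also differed between the libraries. All 6 adipocyte markers (Adipoq, Plin1, Cidec, Cfd, Lep and Ucp1) were higher in library 2, each with an interval above 1, and they summed to 10.6 and 39.4 TPM. None of the 6 was at 0. All 4 atrial markers were higher too, at 1163 and 1551 TPM in sum. Macrophage markers summed to 45.5 and 47.5 TPM with 3 of 6 higher, and 2 of the 6 had an interval above 1 and 0 below. Neutrophil markers summed to 1.02 and 0.510 with 2 of 6 higher, and 0 had an interval above 1 and 1 below. Of the neutrophil markers Mmp8 and Ngp were at 0 in library 1, and Mmp8, S100a9 and Retnlg in library 2. The part of these cells in the Pygl value was not tested. In bulk tissue, fewer cells of a type and less RNA per cell cannot be told apart.

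In the list of other pathway genes, 26 had a mean of at least 1 TPM and 0 passed 2-fold, against 0.603% of all genes tested. The interval lay above 1 for 3 of the 26 (Ppp1r3a, Ppp1r3b and Ppp1ca), where 12.8% of all genes did so. It lay below 1 for 3 (Phkg1, Hk1 and Ppp1r3c), where 10.4% did so. Phkg1 had the ratio farthest below 1, at 0.772 (0.669 to 0.889), from 472 and 339 counts. The alpha and beta subunits Phka1, Phka2 and Phkb and the other gamma subunit Phkg2 had intervals that included 1. Among the targeting subunits, Ppp1r3c was at 0.876 (0.828 to 0.927), whereas Ppp1r3a and Ppp1r3b were at 1.06 (1.02 to 1.10) and 1.17 (1.07 to 1.28). The plot of ratios shows that all but Pygl and Ppp1r3e lay from 0.772 to 1.20.

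**Figure D5:**
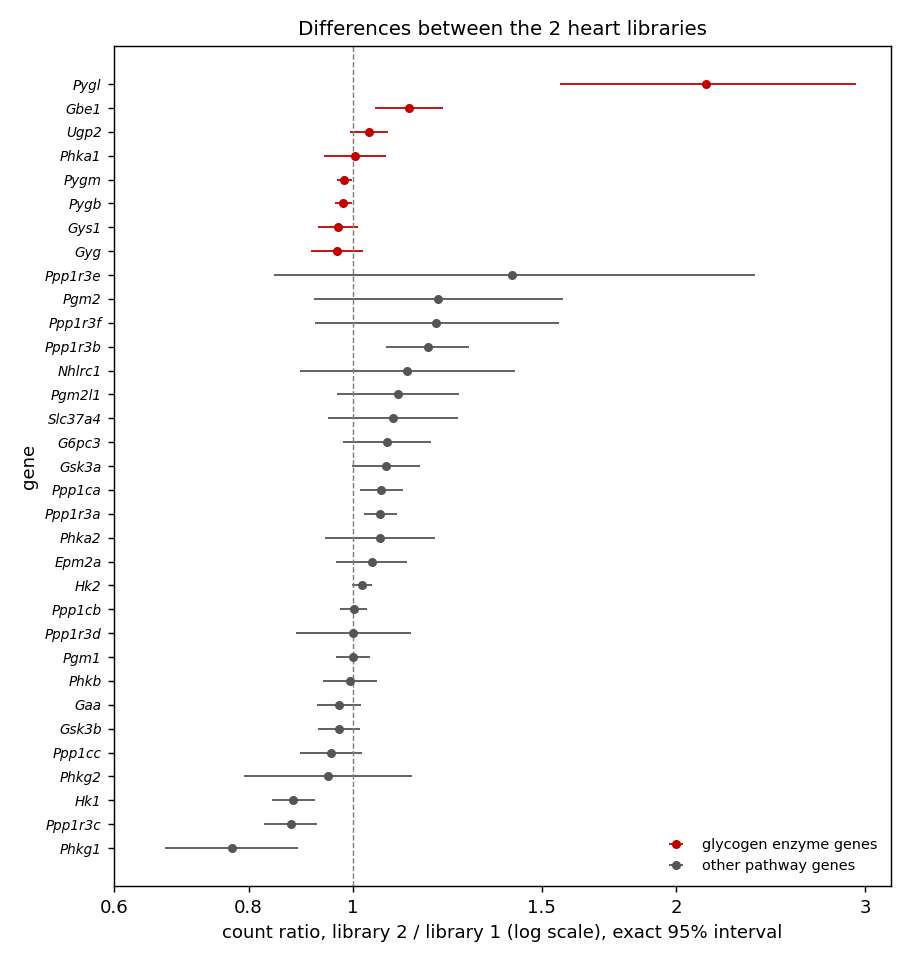
Ratio of scaled expected counts, library 2 over library 1 (log axis), for the glycogen enzyme genes (red) and the other pathway genes (grey, 1 left out) with a mean of at least 1 TPM, with bars for the exact 95% interval of counting error. Pygl stands at 2.13, and the wide intervals belong to genes with low counts.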

How the data were processed

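Heart RNA (300 ng per library, ribosomal RNA reduced, directional kit, spike-ins added, per the labels) gave 2 libraries of 1 group. Per the deposited readme, reads were quantified on mm10 with GENCODE M21. Aligners and versions: not given in the sources used here. The gene and transcript tables of the first quantification hold expected counts, TPM and FPKM, computed by the authors per the file headers. The second, a transcript table in the kallisto layout, holds estimated counts and TPM deposited per transcript, which were summed here per gene. Values of a transcript are estimates wherever entries share sequence. Mice of this cross carry CAST alleles, and how reads from these aligned to mm10 was not tested.

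Genes were joined by identifier. Entries without a mouse gene identifier, such as spike-ins, were left out. With 1 group, values are described without p-values. A gene was detected at 1 TPM or more in both libraries. The 2-fold rule used log2(TPM + 1) and asked for a rounded count of 10 in a library and a mean of 1 TPM. Intervals used rounded expected counts over totals of annotated genes (39668187 and 36926504) and cover counting error only, as does the floor of 3 counts. They were tested on data simulated with counting error alone, which is what they assume. That test cannot show how they behave with other spread. Between the real libraries they excluded 1 for 23.1% of genes with a mean of at least 1 TPM. Depth does not limit the high genes but does limit Gys2 and Pygl. TMM factors came from edgeR 4.0.16 and size factors from DESeq2 1.42.0 in R 4.3.3. Sequences were handled with Biopython 1.88 and BLAST 2.17.0, tables with pandas 2.3.3 under Python 3.11.15, intervals with scipy 1.17.1 and plots with matplotlib 3.10.9.

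The 9 genes and the lists were chosen with earlier results of these data known. Named genes were the 9, those of the 30 in the pathway list (1 of them and 1 marker list are not reported here), the leading transcript of each of the 9 and any other with at least 20% of its gene. Gyg-201, Pygm-203, Pygb-203 and the neighbouring genes were named after their values were seen. Protein sequences were not used here.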

Additional observations from a re-analysis of the deposited data

How the results depend on the processing

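The Pygm share of phosphorylase TPM was 67.8%, but 62.2% in the second quantification, 65.0% over coding transcripts and 58.1% by expected counts with no scaling for length. The Phka1 share of alpha subunit TPM was 68.9%, and 67.8%, 64.5% and 75.6% under the same settings. FPKM left both within 1 SD, but it could not have moved them, since FPKM and TPM differ by a constant factor within a library. Leaving out a library gave 67.7% to 68.0% for Pygm, 68.9% to 68.9% for Phka1 and 99.8% to 100% for Gys1. The number of the 9 genes past 2-fold was 0, and 1 (Pygl) with TMM-scaled and 1 with DESeq2-scaled counts. The genes detected stayed at 7 or 8 of 9 under every setting run, and the pathway genes at 20 to 26 of 30. The median log2 ratio lay between -0.03 and -0.01, and intervals apart from 1 numbered 3 or 4. The leading transcript was the same for 8 or 9 genes. No paired analysis was possible because there is 1 group. With only 2 libraries and 1 group, no test could be made, and ratios cannot be computed with a library left out.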

Other observations

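Of the upstream sequences of the enzyme genes, that of Pygm had the lowest CpG ratio, given as a description with no test. RefSeq (GRCm38.p6) held 9 windows of 250 upstream bases for 8 of the 9 genes. The ratio of observed to expected CpG, the dinucleotide that methylation depletes, was 0.191 for Pygm, and 28.4% of all 32851 windows had a lower one. For the other windows it lay between 0.526 (Gys1) and 0.845 (Phka1), above at least 61.2% of all windows. Pygm is also the gene of the 9 with the highest level in these hearts, while Pygb, the next highest, had a ratio of 0.787. The GC content of the Pygm window was 58.4% against 48.8% (Gbe1) to 73.6% (Ugp2-202 side).

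Muscle of another kind was scarce. The skeletal muscle markers Myh1, Myh2, Myh4, Actn3, Tnnt3 and Mylpf summed to 8.44 and 11.7 TPM, against 22144 and 22348 for the 6 cardiomyocyte markers. Endothelial, fibroblast, and smooth muscle and pericyte markers summed to 527 and 528, 421 and 394, and 165 and 150.4 TPM. The even endothelial sum hides a division, since Fabp4 was higher in library 2 (253 and 272 TPM, interval above 1) and the other 5 had intervals below 1. All 6 fibroblast markers were lower in library 2, 3 of them with intervals below 1, and 1 of the 6 smooth muscle and pericyte markers was higher and 1 had an interval below 1.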
